A study of Ictalurus furcatus with 16 samples.

Results

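The 12 testis libraries of blue catfish (Ictalurus furcatus) males at ages 4, 7 and 9 were divided by their level of insl3. The 6 libraries with the most insl3 RNA form the high group and the 6 with the least the low group. The series holds 16 libraries of total RNA, 4 for each of ages 2, 4, 7 and 9, and the 4 libraries of age 2, which the study treated as its control, took no part in the split. The labels give age as a number without a unit and describe the replicates as biological. No treatment, genotype or strain is named for any group, and all 12 fish share the tissue, the sex and the RNA and library kits. The groups are therefore not groups of the study: they were made from a measured value, and any difference between them describes how genes varied together with insl3 between fish.

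Insulin-like 3 is a small peptide hormone of the relaxin and insulin family that Leydig cells, the steroid-producing cells of the testis interstitium, secrete. In mammals it drives descent of the fetal testis through its receptor Rxfp2. In zebrafish it is made by Leydig cells and promotes the differentiation of spermatogonia, the mitotic germ cells at the base of the seminiferous tubules. Luteinizing hormone acts on the same Leydig cells to raise steroid synthesis, which starts with the transport of cholesterol into mitochondria by StAR and runs through 3-beta and 17-beta hydroxysteroid dehydrogenases to androgens and, in fish, to 11-ketotestosterone.

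The level of insl3 was measured as CPM, counts scaled to a common total of the fragments assigned to genes. In the high insl3 libraries it was 1219.6 and 996 CPM in replicates 3 and 1 of age 7, 969 and 869 CPM in replicates 1 and 3 of age 9, and 621 and 298 CPM in replicates 2 and 3 of age 4. In the low insl3 libraries it was 207 and 51.7 CPM in replicates 2 and 4 of age 9, 188 and 34.7 CPM in replicates 4 and 2 of age 7, and 84.2 and 42.3 CPM in replicates 1 and 4 of age 4. Each age gave 2 libraries to either group, so age and group are not confounded. The members nearest the dividing line were replicate 3 of age 4 at 298 CPM and replicate 2 of age 9 at 207 CPM. These values chose the groups and were not tested. At age 2, insl3 lay between 5.73 and 41 CPM.

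**Figure D1:**
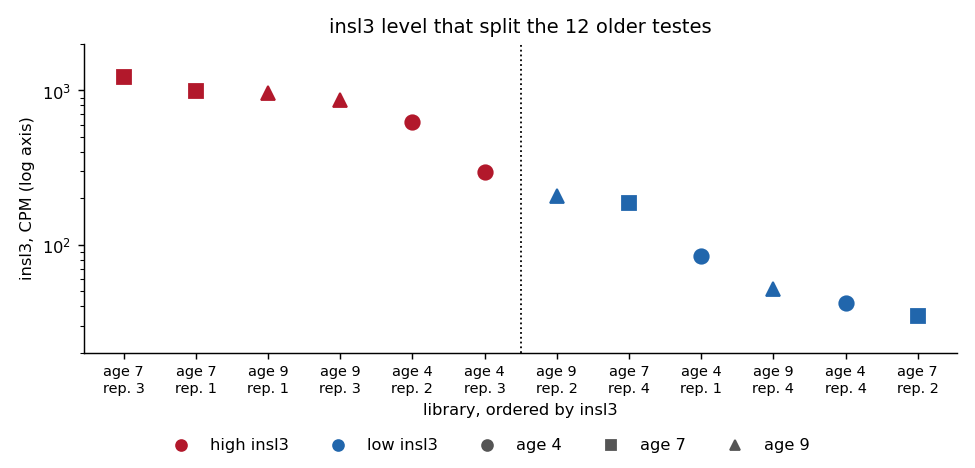
insl3 in CPM (vertical log axis) in each of the 12 libraries of ages 4, 7 and 9, ordered by level along the horizontal axis. Red marks are high insl3 libraries, blue marks low insl3 libraries, the shape gives the age, and the dotted line lies between 298 CPM and 207 CPM. Both groups hold 2 libraries of each age.

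Between 5136717 and 7041743 fragments per library were assigned to genes, which was 23.8% to 30.4% of all counted fragments. Nuclear ribosomal RNA genes took 5.69% to 12.9% of the assigned fragments in the high insl3 libraries and 10.7% to 16.1% in the low insl3 libraries. Mitochondrial genes took 4.45% to 5.8% in the high insl3 libraries and 4.59% to 7.43% in the low ones. The median share of ribosomal RNA was 10.9% in the high insl3 libraries and 12.5% in the low ones, and 4 genes were called when these ribosomal and mitochondrial genes were left out. Principal component 1 of log2 CPM held 21.5% of the variance and did not separate the groups. Of the Leydig cell markers, star, hsd3b1, lhcgr, nr5a1a and hsd17b3 were detected. The genes cyp11a1, cyp17a1 and cyp11c1, also fixed as markers, were not among the steroid synthesis genes found in the counts. The Sertoli cell, germ cell, muscle and blood vessel markers of a testis were present as well. The smooth muscle marker tagln and the Sertoli cell markers dmrt1 and wt1a were listed at 0.

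No gene passed the threshold of an adjusted p of 0.05 in the comparison of high with low insl3 (edgeR quasi-likelihood test with age in the model, Benjamini-Hochberg adjustment, 15630 genes without insl3). The share called was therefore 0%, and the smallest adjusted p was 0.0503, which fbln5, fndc4b and prok2 shared. At an unadjusted p under 0.05 stood 1137 genes, or 7.27%, of which 719 (4.6% of the genes tested) were on the higher side in the high insl3 libraries and 418 (2.67%) on the lower side. Among the 100 genes with the smallest p, 92 had the higher value in the high insl3 libraries, while 44.9% of all tested genes had a positive log2 fold change. The 6 high and the 6 low libraries did not overlap for 65 genes (0.416%), 62 of them higher (0.397%) and 3 lower (0.0192%). On the same 12 libraries DESeq2 called 169 genes, 151 higher and 18 lower, and limma with voom called 9. Single libraries decided the edgeR count as well: it was 10 without replicate 1 of age 7, 9 without replicate 1 of age 4, 7 without replicate 3 of age 4 and 1 without replicate 4 of age 7, and 0 without any one of the others. The shares of 4.6% and 2.67% are the background of every list count below. All values that follow are thus sizes of differences with their errors, and none of the genes named was called by the edgeR test. In bulk RNA, fewer cells of a type and less RNA per cell cannot be told apart.

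The genes nearest the threshold on the higher side included secreted peptides, chemokines and proteins of the extracellular matrix. In fbln5, the gene of fibulin 5, a protein needed for elastic fibres, the high insl3 libraries had 108 to 267 CPM (median 202) and the low insl3 libraries 27.5 to 69.3 CPM (median 45.4). The log2 fold change was 1.89 (SE 0.24, unadjusted p = 4.24e-06, adjusted p = 0.0503). Every high insl3 library lay above every low one. In fndc4b, one of the fish genes of a secreted protein with a fibronectin type III domain, the values were 28.7 to 69.2 CPM (median 49.7) in the high insl3 libraries and 5.31 to 17.4 CPM (median 10.9) in the low ones. The difference was a log2 fold change of 2.07 (SE 0.28, unadjusted p = 6.78e-06, adjusted p = 0.0503), again with no overlap.

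The widest gap among these genes was in prok2, which encodes prokineticin 2, a secreted peptide that acts through G protein-coupled receptors and promotes growth of blood vessels in mammals. It had 56.5 to 148 CPM (median 114) in the high insl3 libraries, against 3.47 to 29.1 CPM (median 6.54) in the low ones, a log2 fold change of 3.35 (SE 0.47, unadjusted p = 9.66e-06, adjusted p = 0.0503). The lowest of the high insl3 libraries, at 56.5 CPM, was above the highest of the low ones, at 29.1 CPM. At age 2 prok2 lay between 0.151 and 4.7 CPM, so that in this gene the low insl3 fish were closer to the age 2 fish than the high insl3 fish were. Between 32.0 and 63.4 CPM, fbln5 at age 2 likewise lay within the range of the low insl3 libraries. Other genes described below differed in this: at age 2 col6a2 lay between 132 and 696 CPM and esr2a between 14.5 and 243 CPM. In both, the highest age 2 library exceeded every high insl3 library.

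Among the next genes, gfra2a, a co-receptor for the neuronal growth factor neurturin, had 14 to 78.1 CPM (median 22.4) in the high insl3 libraries and 4.45 to 15 CPM (median 8.6) in the low ones. Its log2 fold change was 1.69 (SE 0.25, unadjusted p = 1.97e-05, adjusted p = 0.0615), and 5 of the 6 high insl3 libraries lay above all low ones. In lhfpl2b, of a family of membrane proteins with 4 spans, the values were 86.9 to 159 CPM (median 132) in the high insl3 libraries and 44.1 to 74.8 CPM (median 53.8) in the low ones. The difference, a log2 fold change of 1.11 (SE 0.17, unadjusted p = 2.91e-05, adjusted p = 0.0687), was smaller than for prok2, but the groups did not overlap. The chemokine gene ccl25b had 18.4 to 37.6 CPM (median 31.6) in the high insl3 libraries, against 4.5 to 17.1 CPM (median 11.2) in the low ones, with a log2 fold change of 1.56 (SE 0.25, unadjusted p = 3.44e-05, adjusted p = 0.0687) and no overlap. For thbs2b, which encodes a thrombospondin of the matrix that restrains vessel growth in mammals, the values were 33 to 119 CPM (median 76.1) in the high insl3 libraries and 10.3 to 23.3 CPM (median 18.9) in the low ones. Its log2 fold change was 1.92 (SE 0.33, unadjusted p = 7.24e-05, adjusted p = 0.104), also without overlap.

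The other members of the 12 were the ubiquitin-like interferon-induced gene isg15, the open reading frame c3h2orf50, pdzrn4, which encodes a protein with PDZ and RING finger domains, col6a2 of collagen VI and the chemokine cxcl12b. In pdzrn4 the high insl3 libraries held 16.7 to 37.4 CPM (median 21.9) and the low ones 2.22 to 11.3 CPM (median 3.83) (log2 fold change 2.2), with no overlap. The collagen gene col6a2 had 255 to 400.4 CPM (median 335) in the high insl3 libraries and 127 to 195 CPM (median 169.9) in the low ones (log2 fold change 0.89), also with no overlap. The groups overlapped in c3h2orf50, with a log2 fold change of 1.41, and in cxcl12b. That chemokine draws germ cells and blood cells to its source in vertebrates. It had 51.1 to 242 CPM (median 155) in the high insl3 libraries and 27 to 73.9 CPM (median 48.3) in the low ones, a log2 fold change of 1.29 (SE 0.23, unadjusted p = 1.13e-04, adjusted p = 0.104), and 4 of the 6 high insl3 libraries lay above all low ones.

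**Figure D2:**
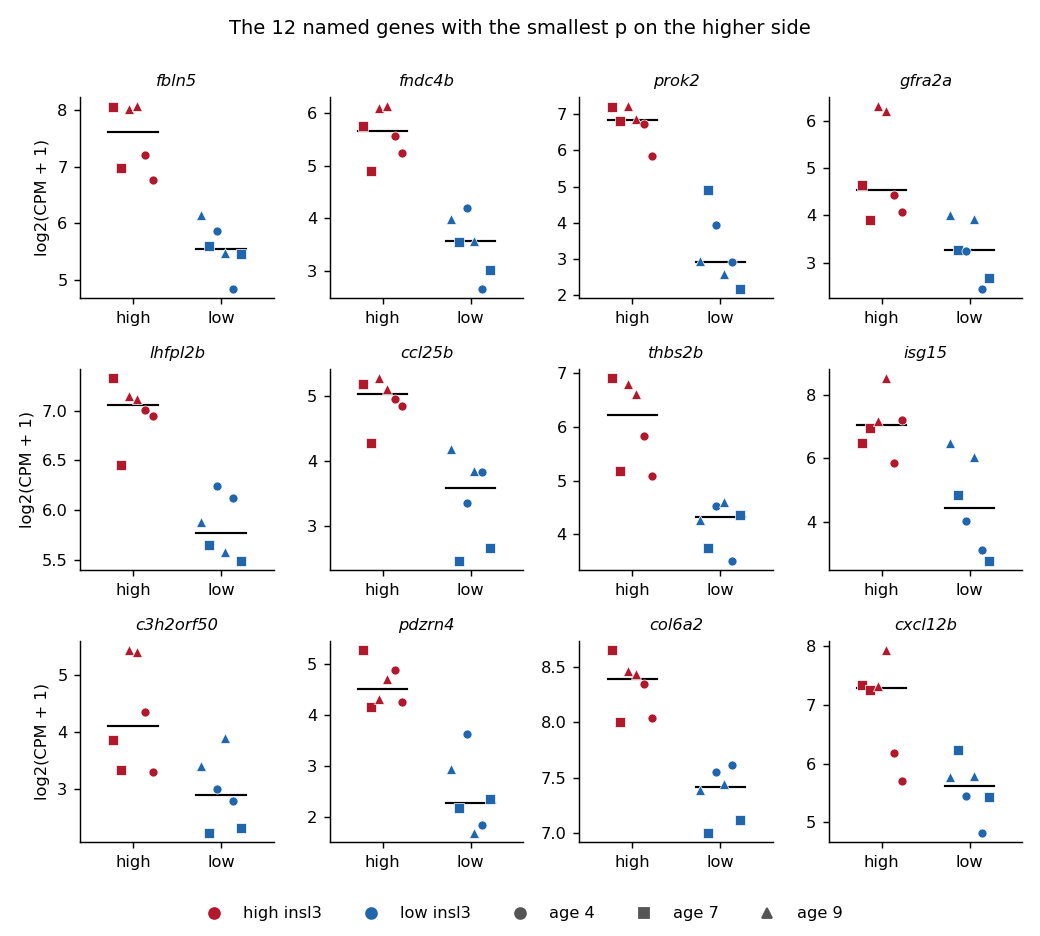
Level as log2(CPM + 1) on the vertical axis in the 6 high (left, red) and 6 low (right, blue) insl3 libraries for the 12 genes with the smallest p on the higher side. Marks are libraries, the shape gives the age, and the black line is the median of the group. In 8 genes, among them prok2 with its lowest high insl3 library at 56.5 CPM and its highest low one at 29.1 CPM, the groups do not overlap. Over all tested genes this held for 0.397% on the higher side. The 12 were chosen by p in the same libraries, so their larger share is no evidence about them.

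DESeq2 called 43 of the 132 genes chosen for description at an adjusted p of 0.05, 36 higher and 7 lower. Over all 15630 tested genes it called 169. Most of the 132 were chosen by a small edgeR p in these same libraries, so their larger share is no evidence about them. The called genes include all 12 genes above, the steroid genes hsd17b1, star and star2, and the receptor genes lhcgr, pgr and esr2a. Its adjusted p was 8.31e-11 for prok2, 4.97e-05 for hsd17b1 and 0.0213 for star. The genes hsd3b1 and amh were among those it did not call. In edgeR, by comparison, 0 of the same 132 genes passed, so that the choice of tool decides whether a gene is called, while the log2 fold change of prok2, 3.39 in DESeq2, was close to that of edgeR.

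Steroid synthesis genes of Leydig cells were examined as the closest neighbours of insl3 in function. Of the 46 genes fixed for this list, 25 were found in the counts under their symbols. The genes cyp11a1, cyp17a1 and cyp11c1 were not among these 25, so this list does not cover them. Of the 17 tested genes of this list, 5 were on the higher side at an unadjusted p under 0.05 and 0 on the lower side, beside 4.6% and 2.67% of all tested genes, and the median log2 fold change was 0.13, against -0.03 over all tested genes. Summed over the list, all 25 members in the counts, tested or not, reached 706 to 1589.8 CPM in the high insl3 libraries. In the low ones they reached 320.1 to 796 CPM, so the groups overlapped. The members with the highest medians in the high insl3 libraries were hsd11b2, hsd3b1 and star, at 397, 356 and 143 CPM. The median of the sum in these libraries was 1140 CPM, so these genes weigh most in it. The Leydig cell marker hsd17b3 had 1.17 to 4.67 CPM in the high insl3 libraries and 1.15 to 3.44 CPM in the low ones. Its log2 fold change was 0.13 (SE 0.41, unadjusted p = 0.757, adjusted p = 0.968).

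Among the steroid genes the smallest p was that of hsd17b1, a 17-beta hydroxysteroid dehydrogenase that activates sex steroids. It had 5.34 to 21.9 CPM (median 14.1) in the high insl3 libraries, against 0.66 to 4.42 CPM (median 2.85) in the low ones, with a log2 fold change of 2.22 (SE 0.42, unadjusted p = 1.68e-04, adjusted p = 0.105). Every high insl3 library exceeded every low one, and at age 2 the gene was at most 0.619 CPM. The cholesterol transporter gene star had 87 to 218 CPM (median 143) in the high insl3 libraries and 19 to 121 CPM (median 42.2) in the low ones, a log2 fold change of 1.46 (SE 0.40, unadjusted p = 0.00323, adjusted p = 0.312). In 5 of the 6 high insl3 libraries star was above all low ones. Its fish duplicate star2 had 8.59 to 64.2 CPM (median 36) in the high insl3 libraries and 3.14 to 23.2 CPM (median 9.13) in the low ones, a log2 fold change of 1.72 (SE 0.50, unadjusted p = 0.00504, adjusted p = 0.357).

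A further 2 dehydrogenases completed the 5. The gene hsd3b1, which turns pregnenolone into progesterone, had 231 to 675 CPM (median 356) in the high insl3 libraries and 53.3 to 384 CPM (median 90.8) in the low ones. The fitted log2 fold change was 1.36 (SE 0.48, unadjusted p = 0.014, adjusted p = 0.498), and 3 of the 6 high insl3 libraries lay above all low ones. For hsd17b12a, of a family that acts in lipid and steroid metabolism, the log2 fold change was 1.12 (SE 0.47, unadjusted p = 0.0321, adjusted p = 0.626). It had 5.92 to 49.4 CPM (median 9.08) in the high insl3 libraries and 3.31 to 13.1 CPM (median 4.06) in the low ones. Only replicate 2 of age 4, at 49.4 CPM, lay above all low ones. Leaving out 1 library at a time gave log2 fold changes of 0.52 to 1.35. The enzyme gene hsd11b2, which takes part in making 11-ketotestosterone in fish, had 167 to 682 CPM (median 397) in the high insl3 libraries and 76.3 to 506 CPM (median 167) in the low ones, a log2 fold change of 0.81 (SE 0.38, unadjusted p = 0.0527, adjusted p = 0.686), with overlap in all but 1 high insl3 library.

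**Figure D3:**
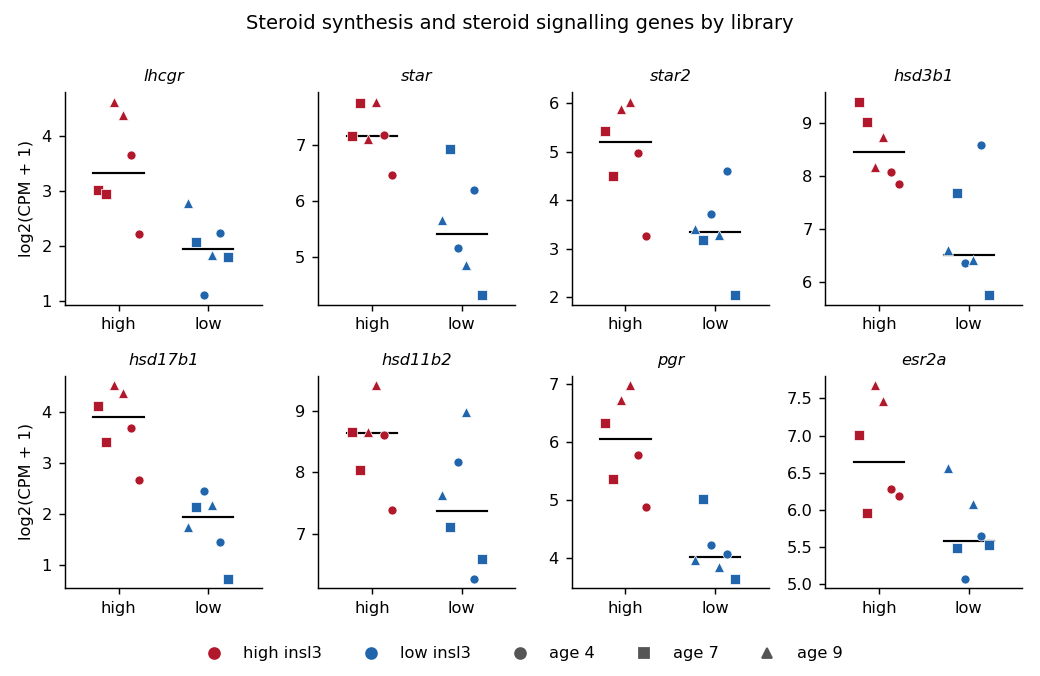
Level as log2(CPM + 1) on the vertical axis in the 6 high (left, red) and 6 low (right, blue) insl3 libraries for 8 genes of steroid synthesis and steroid signalling. Marks are libraries, shapes ages, black lines group medians. The groups do not overlap in hsd17b1 and overlap in the other 7, and the median of star is 143 CPM in the high insl3 libraries and 42.2 CPM in the low ones.

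The receptors of the same axis and their partners were next. Of 18 tested genes of gonadotropin and steroid signalling, 4 were higher and 1 lower at an unadjusted p under 0.05, with a list median of 0.01. The luteinizing hormone receptor gene lhcgr, the receptor through which the pituitary drives Leydig cells, had 3.63 to 23.7 CPM (median 9.35) in the high insl3 libraries and 1.15 to 5.84 CPM (median 2.88) in the low ones, a log2 fold change of 1.69 (SE 0.37, unadjusted p = 6.34e-04, adjusted p = 0.191). Of the 6 high insl3 libraries 5 lay above all low ones. The progestin receptor gene pgr had 28.4 to 124 CPM (median 66.2) in the high insl3 libraries and 11.6 to 31.5 CPM (median 15.2) in the low ones, a log2 fold change of 1.82 (SE 0.36, unadjusted p = 2.56e-04, adjusted p = 0.125), and 5 of the 6 high insl3 libraries again stood clear. The estrogen receptor gene esr2a had 61.3 to 203 CPM (median 102) in the high insl3 libraries and 32.8 to 94 CPM (median 47.1) in the low ones, a log2 fold change of 0.97 (SE 0.19, unadjusted p = 1.94e-04, adjusted p = 0.105). The Leydig cell marker nr5a1a differed little, with 114 to 279 CPM in the high insl3 libraries and 96.4 to 314 CPM in the low ones. Its log2 fold change was 0.10 (SE 0.26, unadjusted p = 0.717, adjusted p = 0.96).

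Cyclic AMP, which the luteinizing hormone receptor raises, acts on transcription through the CREB and CREM factors. The repressor and activator gene cremb had a log2 fold change of 0.75 (SE 0.34, unadjusted p = 0.0474, adjusted p = 0.678). Its relative creb1a was the one lower member, at -0.27. The gap junction gene gja1a (connexin 43), singled out after its values were seen, had 22.7 to 56.8 CPM (median 34.9) in the high insl3 libraries and 8.03 to 20.4 CPM (median 14.4) in the low ones, a log2 fold change of 1.3 (SE 0.24, unadjusted p = 1.22e-04, adjusted p = 0.105), with no overlap.

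In the insulin and relaxin family itself, which here leaves out insl3, 1 of 19 tested genes was higher and 0 lower at an unadjusted p under 0.05, and the median was 0.04. That gene was igfbp1a, a binding protein of insulin-like growth factors, with 36.3 to 265 CPM (median 142) in the high insl3 libraries and 24.1 to 152 CPM (median 89.8) in the low ones (log2 fold change 0.89, unadjusted p = 0.0159). The receptor gene rxfp2a, whose mammalian counterpart binds insulin-like 3, was low in all libraries, with 0.628 to 3.34 CPM (median 1.5) in the high insl3 libraries and 0 to 2.73 CPM (median 0.241) in the low ones. The groups overlapped, with a log2 fold change of 1.36 (SE 0.74, unadjusted p = 0.0895, adjusted p = 0.756). The insulin receptor substrates irs2b and irs1, which pass on the signal of insulin receptors, pointed opposite ways at 0.48 and -0.30, each with an unadjusted p above 0.05.

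Among cholesterol genes 18 of 24 log2 fold changes were below 0, as were 55.1% of those of all tested genes. Of the 24 tested members of cholesterol synthesis and uptake 1 was higher and 5 were lower at an unadjusted p under 0.05, beside 4.6% and 2.67% of all tested genes, and the median was -0.13. The higher one was ldlrb, a receptor that takes up cholesterol-carrying lipoprotein, with 40.04 to 149 CPM (median 52.8) in the high insl3 libraries and 16.5 to 58.4 CPM (median 26.6) in the low ones (log2 fold change 1.03, unadjusted p = 0.0142). On the lower side stood abca1a, which exports cholesterol from cells, at 159 to 217 CPM (median 198) in the high insl3 libraries and 192 to 496 CPM (median 269) in the low ones. Its log2 fold change was -0.68 (SE 0.18, unadjusted p = 0.00233, adjusted p = 0.265), and 5 of the 6 low insl3 libraries lay above all high ones. The synthesis enzyme gene msmo1, a sterol oxidase, was at -0.60, and insig2, which restrains synthesis when sterols are plentiful, at -0.31.

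Smooth muscle genes were among the lists that leaned furthest to the higher side. Peritubular myoid cells, contractile cells that wrap the seminiferous tubules, share these genes with the muscle of blood vessels. Of 16 tested members 10 were higher and 0 lower at an unadjusted p under 0.05, against the 4.6% of all genes, and the median was 0.75. The summed level of all 23 list members in the counts, tested or not, was 4521 to 14222 CPM in the high insl3 libraries. In the low ones it was 3955 to 7576 CPM, so the groups overlapped. Actins, myosins and calponins belong to families of similar genes, whose counts are less certain where fragments match several copies.

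The member with the smallest p was lmod1b, which encodes an actin-nucleating leiomodin, with 149.6 to 314 CPM (median 230.3) in the high insl3 libraries and 85.8 to 192 CPM (median 91.1) in the low ones, a log2 fold change of 0.88 (SE 0.18, unadjusted p = 3.35e-04, adjusted p = 0.138). The actin-binding synaptopodin gene synpo2b had 425 to 1105 CPM (median 624) in the high insl3 libraries and 203 to 534 CPM (median 339) in the low ones, a log2 fold change of 0.90 (SE 0.20, unadjusted p = 6.97e-04, adjusted p = 0.202). The kinase gene mylkb, which starts contraction by phosphorylating myosin light chain, had 544 to 1063 CPM (median 853) in the high insl3 libraries and 341 to 679.6 CPM (median 422) in the low ones, a log2 fold change of 0.73 (SE 0.17, unadjusted p = 8.31e-04, adjusted p = 0.21). Next came the smoothelin gene smtna at 1.33 (SE 0.38, unadjusted p = 0.00396, adjusted p = 0.347) and the calponin gene cnn1b at 0.85 (SE 0.24, unadjusted p = 0.00398, adjusted p = 0.347). Smooth muscle actin acta2 was at 1788 to 8290.2 CPM (median 4236) in the high insl3 libraries and 2000.2 to 4360.04 CPM (median 2439.7) in the low ones, a log2 fold change of 0.57 (SE 0.26, unadjusted p = 0.0496, adjusted p = 0.683), and 1 high insl3 library was below all low ones. The heavy chain gene myh11a was at 0.62 with an unadjusted p of 0.176.

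Extracellular matrix genes, the collagens, their crosslinkers and the proteases that cut them, had 12 of 38 tested members higher and 0 lower at an unadjusted p under 0.05, beside 4.6% and 2.67% of all tested genes, and a median of 0.22. Collagen VI, a microfibril of connective tissue, was represented by col6a2 above and by col6a1, with 258 to 453 CPM (median 356) in the high insl3 libraries and 128 to 273 CPM (median 189) in the low ones, a log2 fold change of 0.84 (SE 0.19, unadjusted p = 7.36e-04, adjusted p = 0.206). The protease gene adamts1, which cuts proteoglycans and is induced by luteinizing hormone in the mammalian ovary, had 88.8 to 612 CPM (median 164) in the high insl3 libraries and 18.3 to 122 CPM (median 48.9) in the low ones. At 2.17 (SE 0.53, unadjusted p = 0.00145, adjusted p = 0.236) its log2 fold change was the widest of the list, and 5 of the 6 high insl3 libraries lay above all low ones. The fibril-associated collagen gene col12a1a was at 0.67 (SE 0.18, unadjusted p = 0.00322, adjusted p = 0.312).

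Blood vessel genes were read through markers of endothelium. Of 24 tested endothelial genes 1 was higher and 0 lower at an unadjusted p under 0.05, with a median of 0.19. That gene was kdrl, a receptor of vascular endothelial growth factor, with 156 to 452 CPM (median 318) in the high insl3 libraries and 87.6 to 252 CPM (median 140.01) in the low ones, a log2 fold change of 0.94 (SE 0.24, unadjusted p = 0.00177, adjusted p = 0.248). The junction gene cdh5 was at 0.25 and the receptor gene tie1 at 0.37, with an unadjusted p of 0.343 and 0.245. In the other direction, egfl7 was at -0.38 (SE 0.24, unadjusted p = 0.147, adjusted p = 0.809). Of the 24 log2 fold changes 17 were positive and 7 negative. Of 5 erythrocyte genes, a sign of blood in the sample, 1 was higher, the membrane skeleton gene ank1b at 1.38 (SE 0.46, unadjusted p = 0.0105, adjusted p = 0.464), and the list median was 0.46. Low counts limit ank1b, which had 1.91 to 7.1 CPM in the high insl3 libraries and 0.635 to 2.92 CPM (median 0.897) in the low ones. The summed level of all 12 erythrocyte genes in the counts, tested or not, was 44.6 to 184 CPM in the high insl3 libraries and 46.5 to 150.3 CPM in the low ones. The part of blood in the results was not tested.

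The list with the largest share on the higher side was that of the interferon response, the antiviral programme that type I interferon switches on in most cells. Of its 19 tested genes 13 were higher and 0 lower at an unadjusted p under 0.05, beside 4.6% and 2.67% of all tested genes, and the median was 0.77. Summed over the list the level was 1403 to 4990.3 CPM in the high insl3 libraries and 415 to 2854 CPM in the low ones. The groups overlapped in all 19 genes.

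The gene isg15, whose product is attached to other proteins during viral infection, had 56.1 to 364 CPM (median 132) in the high insl3 libraries and 5.78 to 87.8 CPM (median 21.3) in the low ones, a log2 fold change of 2.4 (SE 0.42, unadjusted p = 8.03e-05, adjusted p = 0.104). Of the 6 high insl3 libraries 4 lay above all low ones. The effector gene ifit8 had 129 to 591 CPM (median 244) in the high insl3 libraries and 22.4 to 293 CPM (median 68.6) in the low ones, a log2 fold change of 1.52 (SE 0.35, unadjusted p = 8.05e-04, adjusted p = 0.21). In cmpk2, a nucleotide kinase induced by interferon, the log2 fold change was 1.35 (SE 0.32, unadjusted p = 9.91e-04, adjusted p = 0.212), and in helz2a, a helicase coactivator, 1.39 (SE 0.33, unadjusted p = 0.00122, adjusted p = 0.225). The antiviral GTPase gene mxa had 54.4 to 374 CPM (median 119.9) in the high insl3 libraries and 19.97 to 145 CPM (median 50.7) in the low ones, a log2 fold change of 1.1 (SE 0.27, unadjusted p = 0.00155, adjusted p = 0.239). The sensor of viral RNA, rigi, had 424 to 1363 CPM (median 659) in the high insl3 libraries and 65.7 to 865 CPM (median 285) in the low ones, a log2 fold change of 1.1 (SE 0.35, unadjusted p = 0.00863, adjusted p = 0.444). At age 2 isg15 lay between 4.07 and 8.85 CPM and ifit8 between 4.22 and 18.6 CPM, below every high insl3 library. For ifit8 the age 2 libraries were also below every low insl3 library, the lowest of which was at 22.4 CPM. In isg15 they overlapped the low insl3 libraries, whose lowest value was 5.78 CPM and median 21.3 CPM.

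Macrophages and lymphocytes were followed through their marker genes. Of 25 tested macrophage and myeloid genes 22 had a positive log2 fold change, as did 44.9% of all tested genes, 3 were higher and 0 lower at an unadjusted p under 0.05, and the median was 0.31. The lysosomal marker cd68 had 587 to 1651 CPM (median 813) in the high insl3 libraries and 244 to 1001 CPM (median 467) in the low ones, a log2 fold change of 0.69 (SE 0.18, unadjusted p = 0.00191, adjusted p = 0.254). The oxidase subunit ncf1 was at 0.60 and the complement gene c1qc at 0.81. Further markers of macrophages, marco, c1qb and mpeg1.1, were at 0.82, 0.55 and 0.64, with an unadjusted p of 0.0954, 0.111 and 0.135. The summed level of the macrophage list was 2419 to 3937 CPM in the high insl3 libraries and 1715 to 3802 CPM in the low ones. Of 9 tested lymphocyte genes 1 was higher, the T cell signalling gene themis at 0.84 (SE 0.33, unadjusted p = 0.0253, adjusted p = 0.594). It had 13.5 to 69.2 CPM (median 20.8) in the high insl3 libraries and 8.41 to 26.9 CPM (median 13.5) in the low ones. Only replicate 2 of age 4, at 69.2 CPM, lay above all low ones. The B cell receptor gene cd79a was at 0.24 (unadjusted p = 0.172) and the recombinase gene rag2 at -0.34 (unadjusted p = 0.246). Whether immune cells had a part in the interferon values was not tested.

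**Figure D4:**
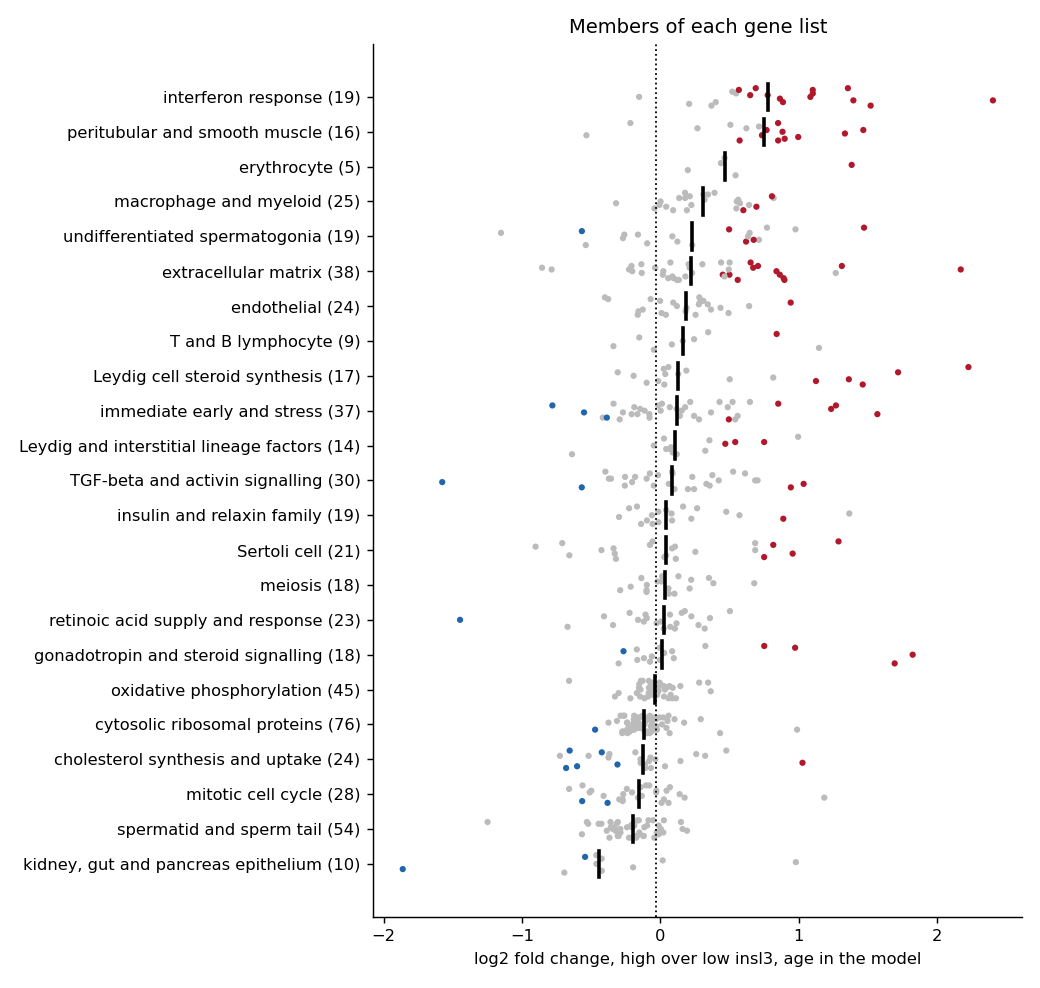
Log2 fold change, high over low insl3 (horizontal axis), of every tested member of 23 gene lists (vertical axis, number tested in brackets). Red and blue marks are members with an unadjusted p under 0.05 on the higher and lower side, grey marks the others, black bars list medians, and the dotted line the median of all tested genes at -0.03. The interferon and smooth muscle lists have the highest medians, 0.77 and 0.75, and the kidney, gut and pancreas list the lowest, -0.44.

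Sertoli cells, the nurse cells of the tubules, were represented by 21 tested genes, of which 4 were higher and 0 lower at an unadjusted p under 0.05, with a median of 0.04. All 4 encode secreted factors that other cells of the testis also make. The chemokine gene cxcl12a had 151 to 282 CPM (median 203) in the high insl3 libraries and 59.3 to 188 CPM (median 85.2) in the low ones, a log2 fold change of 0.96 (SE 0.21, unadjusted p = 6.06e-04, adjusted p = 0.188). The inhibin beta A genes, subunits of activin, were inhbab at 114 to 169 CPM (median 145) in the high insl3 libraries and 46.9 to 102 CPM (median 80.9) in the low ones, without overlap, and inhbaa. Their log2 fold changes were 0.82 (SE 0.21, unadjusted p = 0.00191, adjusted p = 0.254) for inhbab and 0.75 (SE 0.19, unadjusted p = 0.00176, adjusted p = 0.248) for inhbaa.

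The markers that define Sertoli cells pointed both ways or differed little. Anti-Mullerian hormone, amh, which Sertoli cells secrete and which in zebrafish restrains the differentiation of spermatogonia and Leydig cell function, had 38.7 to 207 CPM (median 81.3) in the high insl3 libraries and 78.9 to 296 CPM (median 162) in the low ones. The groups overlapped, with a log2 fold change of -0.90 (SE 0.42, unadjusted p = 0.0538, adjusted p = 0.69). The tight junction gene cldn11a was at -0.66, the transcription factor gene sox9a at -0.33 and the inhibin alpha gene inha at 0.68, each with an unadjusted p above 0.2. Levels of inha were low, with 0.836 to 1.72 CPM in the high insl3 libraries and 0 to 1.95 CPM (median 0.568) in the low ones. The markers gsdf and fshr, at 90.6 to 496 CPM and 153 to 293 CPM over both groups, were at 0.11 and 0.08. Their unadjusted p was 0.70 and 0.571. Interstitial lineage genes, which mark the precursors of Leydig and stromal cells, had 3 of 14 tested members higher and 0 lower. These were inhbaa, the growth factor receptor gene pdgfrb at 0.47 (SE 0.15, unadjusted p = 0.00882, adjusted p = 0.444) and the nuclear receptor gene nr2f1a at 0.54 (SE 0.22, unadjusted p = 0.0278, adjusted p = 0.607). A related gene, nr2f2, pointed the other way at -0.64 (SE 0.30, unadjusted p = 0.0542, adjusted p = 0.69). Of the 14 log2 fold changes 12 were positive and 2 negative.

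Germ cells were described from spermatogonia to sperm. Of 19 tested genes of undifferentiated spermatogonia 4 were higher and 1 lower at an unadjusted p under 0.05, and the median was 0.23. The co-receptor gene gfra1b, which receives the GDNF signal that maintains spermatogonial stem cells in mammals, had 21 to 74 CPM (median 44.3) in the high insl3 libraries and 11.2 to 18.3 CPM (median 14.6) in the low ones. Its log2 fold change was 1.47 (SE 0.28, unadjusted p = 1.66e-04, adjusted p = 0.105), with no overlap. The stem cell repressor zbtb16a (Plzf) had 152 to 269.8 CPM (median 227) in the high insl3 libraries and 97.6 to 147 CPM (median 138) in the low ones, a log2 fold change of 0.62 (SE 0.18, unadjusted p = 0.00489, adjusted p = 0.357), also with no overlap. The transcription factor gene sall1a was at 0.67 (SE 0.29, unadjusted p = 0.0381, adjusted p = 0.656).

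Other spermatogonial genes lay on the lower side. The gene piwil2, which silences transposons through small RNAs in germ cells, was at -0.57 (SE 0.24, unadjusted p = 0.0321, adjusted p = 0.626). The stem cell marker nanos2, an RNA-binding protein, had 0.374 to 2.67 CPM (median 1.23) in the high insl3 libraries and 1.16 to 9.75 CPM (median 1.42) in the low ones, a log2 fold change of -1.15 (SE 0.54, unadjusted p = 0.0552, adjusted p = 0.691). Members of this list thus pointed both ways.

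Of 18 tested meiosis genes 0 were higher or lower at an unadjusted p under 0.05, with a median of 0.04. The recombination genes spo11, which cuts DNA to start recombination, and dmc1, which repairs the cuts, were at 0.38 and 0.13. The chromosome axis gene hormad1 was at 0.35, and mei4, syce3 and smc1b, of the cut sites, the synaptonemal complex and cohesin, were at 0.68, 0.21 and -0.29. For syce3 the value turned to -0.20 with the replicate number in the model. The 54 tested genes of spermatids and the sperm tail also had 0 in either direction, although 48 of them had a negative log2 fold change, as did 55.1% of all tested genes, and the median was -0.20. The summed level of all 78 list members in the counts, tested or not, was 4067 to 10708 CPM in the high insl3 libraries. In the low ones it was 2772 to 12441 CPM. The cilium gene cfap52 had 414 to 1099 CPM (median 635) in the high insl3 libraries and 318 to 1278 CPM (median 1002) in the low ones, a log2 fold change of -0.39 (SE 0.33, unadjusted p = 0.265, adjusted p = 0.865). Smaller p-values were those of the axoneme gene cfap77 at -1.25 (SE 0.61, unadjusted p = 0.0616, adjusted p = 0.709) and the ciliary transcription factor gene rfx3 at -0.52 (SE 0.29, unadjusted p = 0.0918, adjusted p = 0.756), while cfap73 and cfap45 were at -0.57 and -0.45. Low counts limit cfap77, which had 0 to 1.5 CPM in the high insl3 libraries and 0.794 to 3.44 CPM in the low ones.

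Signals that act between somatic and germ cells were covered by a pair of lists. Retinoic acid, which starts meiosis in mammals, was covered by 23 tested genes of its supply and response, of which 0 were higher and 1 lower at an unadjusted p under 0.05, with a median of 0.02. The lower one was the receptor gene rarga at -1.45 (SE 0.51, unadjusted p = 0.0138, adjusted p = 0.498), with under 3 CPM in each of the 12 libraries. The synthesis enzyme gene aldh1a3 was at -0.41, and the carrier genes crabp2b and rbp5 at 0.36 and 0.22. TGF-beta and activin signalling had 2 of 30 tested genes higher and 2 lower, beside 4.6% and 2.67% of all tested genes, with a median of 0.09. The lower ones were the signal carrier smad1 and the receptor gene bmpr1aa at -1.58 (SE 0.47, unadjusted p = 0.00538, adjusted p = 0.364). The higher ones were the ligand genes gdf9 at 0.94 (SE 0.40, unadjusted p = 0.035, adjusted p = 0.638) and bmp2a at 1.03 (SE 0.46, unadjusted p = 0.0431, adjusted p = 0.674). Levels of bmpr1aa were low, with 0.157 to 1.28 CPM in the high insl3 libraries and 1.0 to 1.93 CPM in the low ones. Those of bmp2a were 1.1 to 1.99 CPM and 0.165 to 1.47 CPM. In gdf9 the high insl3 libraries had 2.29 to 17.3 CPM (median 4.21) and the low ones 1.93 to 4.01 CPM (median 2.43). The value of 17.3 CPM was that of replicate 2 of age 4.

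Of 28 tested genes of the mitotic cell cycle 0 were higher and 2 lower at an unadjusted p under 0.05, with a median of -0.15. The proliferation marker mki67 had 285 to 444 CPM (median 367) in the high insl3 libraries and 350.1 to 527 CPM (median 447) in the low ones, a log2 fold change of -0.38 (SE 0.16, unadjusted p = 0.0322, adjusted p = 0.626). The replication helicase gene mcm7 had 65.6 to 106 CPM (median 95.6) in the high insl3 libraries and 87.4 to 219 CPM (median 117) in the low ones, a log2 fold change of -0.57 (SE 0.22, unadjusted p = 0.0233, adjusted p = 0.585). The helicase gene mcm3 and the cell cycle factor gene mybl2b were at -0.51 and -0.56, and for mybl2b the value turned to 0.16 with the replicate number in the model.

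On the lower side over all genes no p was as small as on the higher side. The 3 genes whose groups did not overlap on this side, singled out after their values were seen, were LOC128602098 at -0.82, LOC128601607 at -1.44 and zzz3 at -0.63, of which the first had the smallest p of the side, 2.30e-04 (adjusted p = 0.12). Among genes with a name, the smallest p was that of b3gnt2a, an enzyme that extends sugar chains, with 1.003 to 2.62 CPM (median 1.14) in the high insl3 libraries and 1.82 to 4.67 CPM (median 2.43) in the low ones, a log2 fold change of -1.03 (SE 0.25, unadjusted p = 0.00129, adjusted p = 0.225). Of the 12 genes named by the rule the widest difference was in duox, a membrane oxidase that makes hydrogen peroxide, with 1.41 to 21.8 CPM (median 2.95) in the high insl3 libraries and 2.86 to 40.6 CPM (median 22.3) in the low ones, a log2 fold change of -2.38 (SE 0.58, unadjusted p = 0.0013, adjusted p = 0.225). The groups overlapped, since replicate 4 of age 9 of the low insl3 group was at 2.86 CPM. The BMP signal carrier smad1 had 64.5 to 117 CPM (median 89.2) in the high insl3 libraries and 95.3 to 187 CPM (median 116) in the low ones, a log2 fold change of -0.57 (SE 0.14, unadjusted p = 0.00151, adjusted p = 0.236).

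Among the remaining genes of the lower side, syngap1a, which switches off Ras, was at 20.1 to 26 CPM (median 22.2) in the high insl3 libraries and 21.8 to 68.3 CPM (median 35.8) in the low ones, and 5 of the 6 low insl3 libraries lay above all high ones (log2 fold change -0.79). The palmitoyltransferase gene zdhhc14 was at -1.41, the histone methyltransferase gene prdm2a at -0.59 and the gene zgc:163098 at -0.45. The splicing factor gene scaf11 was at -0.41, the corepressor scaffold gene sin3aa at -0.42 and the gene smad10b at -0.76. The secreted antioxidant gene gpx3, at -1.06, had 0.883 to 2.04 CPM (median 1.21) in the high insl3 libraries and 1.49 to 3.58 CPM (median 2.7) in the low ones. With the cholesterol exporter abca1a these made the 12 genes named on this side, and the groups overlapped in each of them.

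Immediate early and stress genes, which respond within minutes to handling and to hormones, had 5 of 37 tested members higher and 3 lower at an unadjusted p under 0.05, beside 4.6% and 2.67% of all tested genes, with a median of 0.12. The orphan receptor nr4a1, an activator of steroid genes in mammalian Leydig cells, had 2.51 to 33.7 CPM (median 15.1) in the high insl3 libraries and 2.38 to 11.2 CPM (median 3.86) in the low ones, a log2 fold change of 1.27 (SE 0.45, unadjusted p = 0.015, adjusted p = 0.509). The AP-1 subunit gene fosl2 was at 1.57 (SE 0.52, unadjusted p = 0.0103, adjusted p = 0.464), while nr4a2b, a relative of nr4a1, was at -0.55 (SE 0.20, unadjusted p = 0.0159, adjusted p = 0.521) and the factor gene klf11a at -0.78 (SE 0.28, unadjusted p = 0.017, adjusted p = 0.533). Low counts limit fosl2, which had 1.28 to 4.27 CPM in the high insl3 libraries and 0.195 to 1.93 CPM (median 0.484) in the low ones. The part of sampling stress in the results was not tested.

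Housekeeping genes were covered by a pair of lists. Of 45 tested genes of oxidative phosphorylation 0 had an unadjusted p under 0.05, with a median of -0.04. The complex I genes ndufs8a, ndufb7 and ndufa10 were at -0.33, 0.28 and -0.15, and the ATP synthase gene atp5mc1 was at 0.36. Of 76 genes of cytosolic ribosomal proteins 0 were higher and 1 lower, rps6 at -0.47 (SE 0.21, unadjusted p = 0.0409, adjusted p = 0.67), with a list median of -0.12. Of these 76 genes 65 had a negative log2 fold change, as did 55.1% of all tested genes, and 11 a positive one. Genes of kidney, gut and pancreas, which would mark neighbouring organs, were low, with summed levels of 66.5 to 117 CPM in the high insl3 libraries and 74.9 to 122 CPM in the low ones. Of 10 tested 2 were lower, the kidney factor gene pax8 at -1.86 (SE 0.54, unadjusted p = 0.00457, adjusted p = 0.357) and the trypsin gene prss1 at -0.54 (SE 0.23, unadjusted p = 0.0318, adjusted p = 0.626), and the list median was -0.44.

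Whether the difference between high and low insl3 libraries itself varied with age was tested as an interaction. For 0 of the 15630 genes did it pass the threshold in edgeR (smallest adjusted p 0.672), and 682 genes had an unadjusted p under 0.05. Within each age, 2 high insl3 libraries were set against 2 low ones, on mean log2 CPM. For prok2 the differences were 2.83 at age 4, 3.5 at age 7 and 4.38 at age 9, for fbln5 1.53 at age 4, 1.91 at age 7 and 2.18 at age 9 and for hsd17b1 1.29 at age 4, 2.67 at age 7 and 2.65 at age 9. Receptor genes gave 1.37 at age 4, 1.1 at age 7 and 2.33 at age 9 (lhcgr), and pgr gave 1.08 at age 4, 1.44 at age 7 and 2.93 at age 9, so all of these were on the higher side at every age. Over all 15630 tested genes, 2129 were higher at all 3 ages and 2091 lower. The genes given here were named for a small p in the same libraries, so their shared sign is no evidence about them.

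Other genes were less even across ages. In star2 the differences were -0.18 at age 4, 2.4 at age 7 and 2.63 at age 9, and in hsd3b1 0.36 at age 4, 2.39 at age 7 and 1.88 at age 9. In the interferon genes the smallest difference was that of age 9, with 2.9 at age 4, 2.89 at age 7 and 1.53 at age 9 for isg15 and 2.05 at age 4, 1.68 at age 7 and 0.47 at age 9 for cmpk2. The complement gene c1qb gave 1.38 at age 4, 0.99 at age 7 and -0.70 at age 9, and the smooth muscle gene cnn1b -0.04 at age 4, 1.2 at age 7 and 1.31 at age 9. With 2 libraries on a side these differences carry no test of their own, and the interaction test separated none of them.

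**Figure D5:**
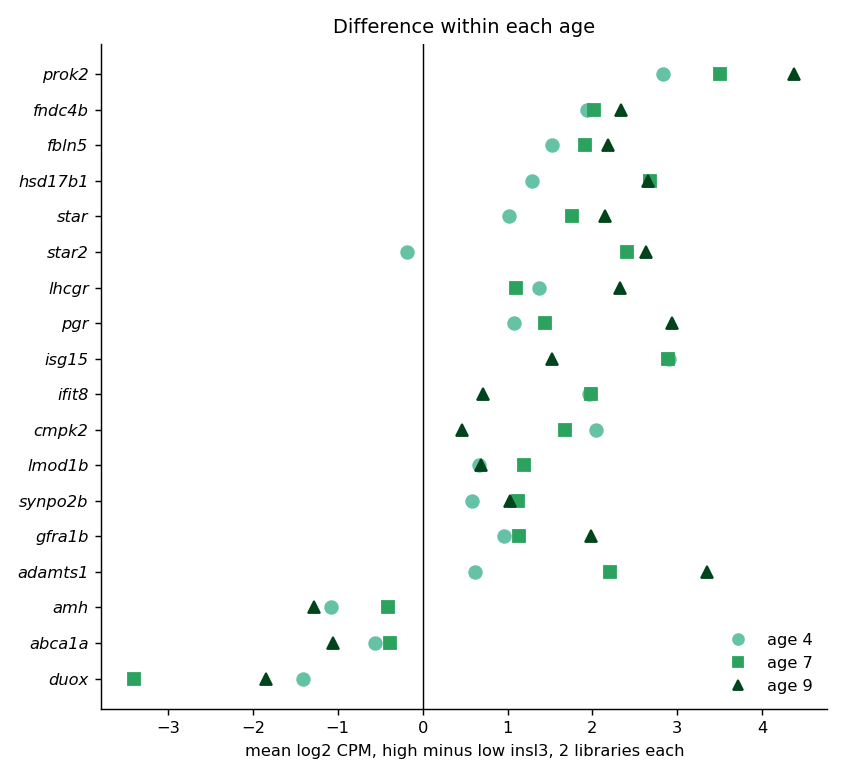
Mean log2 CPM of the 2 high insl3 libraries minus that of the 2 low insl3 libraries (horizontal axis) at ages 4, 7 and 9 (shape and shade) for 18 genes (vertical axis). The vertical line marks no difference. For prok2 the 3 values are 2.83 at age 4, 3.5 at age 7 and 4.38 at age 9, and star2 is the one gene shown whose sign differs between ages.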

How the data were processed

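RNA was extracted and sequencing libraries were made with kits (Quick-RNA Miniprep Plus and NEBNext Ultra II RNA), per the labels' protocols. STAR 2.7.5, HTSeq 0.11.1, Trimmomatic 0.39, edgeR 4.4.2, FastQC 0.11.9 and MultiQC 1.10.1 are named in the submitters' processing notes. The step each served, the genome build and the use of strand were not given in the sources used here. Deposited by the authors were raw counts per transcript, 50072 per library, with summary lines that held 69.6% to 76.2% of the fragments of the 12 libraries (25.7% to 29.4% ambiguous) and were left out. Genes with several transcripts, similar copies or antisense partners are therefore less certain.

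Counts were summed to 26356 gene symbols. Genes were kept by filterByExpr (minimum count 10, total 15) and scaled by TMM (factors 0.889 to 1.12). They were tested with edgeR 4.0.16 (quasi-likelihood, robust, two-sided) in R 4.3.3, with age as a factor, Benjamini-Hochberg adjustment (threshold 0.05) and 8 residual degrees of freedom. The common biological coefficient of variation was 0.343. Log2 CPM used a prior count of 2. DESeq2 1.42.0 and limma 3.58.1 were alternatives. The procedure was tested on simulated data. P-values measure the spread between fish, since the replicates are described as biological. No library was a duplicate (chi-square per degree of freedom 11.2 to 68.2 between libraries of 1 age).

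The split, the 23 gene lists and the alternatives were chosen with earlier results of these data known, so no list is independent evidence. List members vary together between fish, so counts over a list are a description. Since no gene passed, the naming rule took the 12 smallest p-values in each direction among genes with a mean of at least 1 CPM and no LOC symbol, and the 4 smallest of each list. All other genes described, among them cell type markers such as acta2, amh, cnn1b, cfap52, nanos2, marco, c1qb, cdh5 and tie1, were added after their values were seen. A further 13 markers and family members were left out of the 132 named genes after their values were seen because their sign turned under alternatives: insl5b, plvapb, sycp3, cd247, ar, fshr, hsd17b3, tekt1, gsdf, nr5a1a, rln1, sycp1 and id4. The log2 fold changes of these 13 lay between -0.26 and 0.13, and 0 had an unadjusted p under 0.05 (smallest 0.49). This was not done for every such gene: syce3, dll4 and mybl2b, whose sign also turned, were kept. Values of fshr, hsd17b3, gsdf and nr5a1a are given above as cell type markers. Promoter sequences were not used here.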

Additional observations from a re-analysis of the deposited data

Results flagged for a closer look

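In single genes, 1 library stood apart from the other 5 of its insl3 group, by Dixon's ratio of its gap to the range of the group. This occurred in 14 of 264 tests (132 named genes in 2 groups), and chance flags about 1 in 20 groups. In the high insl3 group, replicate 2 of age 4 had the lowest zgc:163098 at 54.2 CPM, the highest rbp5 at 86.2 CPM and the lowest mpeg1.1 at 13.1 CPM. Replicate 3 of age 4, the high insl3 library nearest the dividing line, had the lowest smc1b at 63.7 CPM and the lowest mcm3 at 17.9 CPM, and replicate 1 of age 7 the lowest inha at 0.836 CPM.

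In the low insl3 group, replicate 4 of age 9 had the lowest duox at 2.86 CPM and the lowest prss1 at 7.14 CPM. The same fish had the highest ank1a at 109.7 CPM, acta2 at 4360.0 CPM and cldn11a at 676 CPM. Replicate 4 of age 7 had the highest pgr at 31.5 CPM and hormad1 at 12.4 CPM, and the lowest rag2 at 2.89 CPM.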

How the results depend on the processing

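The count of calls, 0 in the edgeR test as reported, was 3 with DESeq2's size factors, 3 with upper quartile scaling, 18 with no filter on low counts, 3 with a filter at 1 CPM, 169 with DESeq2 and 9 with limma voom. It was 4 without age in the model, 2 with age as a number, 25 with log2 insl3 as a number, 1 with all 16 libraries in the fit, and 0 with a 1.5-fold limit or with the libraries on either side of the split left out. Without ribosomal RNA and mitochondrial genes it was 4; this setting and the removal of the libraries beside the split were chosen after seeing the data. Ranking insl3 within each age put all 12 libraries in the same groups, so it repeats the reported fit and tests nothing. Leaving out 1 library gave 0 to 10. Over 27 settings, that repeat included, fbln5 was called in 14, fndc4b in 13, prok2 in 12, gfra2a in 8 and lhfpl2b in 6. The genes at an unadjusted p under 0.05 on the lower side numbered 210 with all 16 libraries and 259 to 454 when 1 library was left out, the lowest without replicate 2 of age 7. The interaction with age gave 1 gene with no filter (LOC128605360) and 1 without replicate 1 of age 4 (LOC128610450). The causes of these shifts were not tested.

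Whether replicate numbers pair the fish was not decided. Same-numbered residuals correlated at -0.317 to 0.213 (median 0.024), and 3 of 12 pairs exceeded 0.1. Between libraries of other numbers they correlated at -0.3839 to 0.3565 (median -0.0135), and 13 of 36 pairs exceeded 0.1. Replicate 3 of every age was in the high insl3 group and replicate 4 of every age in the low one. The residuals were taken after the group was fitted, so a replicate difference along the split could not show in them. With the replicate block 0 genes were called, 449 genes were higher and 208 lower at an unadjusted p under 0.05, and the log2 fold change turned to -0.20 for syce3, -0.037 for dll4 and 0.16 for mybl2b.

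Low counts limit genes near 0.584 CPM, the level of 3 counts in the smallest library. The groups follow a measured value, and other differences between the fish cannot be told apart from it.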
